A study of Mus musculus with 12 samples.

Results

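The probes described here are the 732 on a mouse long-noncoding-RNA array whose names begin with mouselinc (649, called mouselincRNA probes below) or with MM9LINCRNAEXON (83, called lincRNA exon probes). They were taken by name alone from 60915 non-control probes, and earlier results of these data were known when this was done. The array measured RNA from 12 left ventricles of male C57BL/6J mice, each hybridised to 1 array after rRNA removal, random-primed amplification and Cy3 labelling. The 4 groups of 3 independent ventricles were wild-type sham, wild-type myocardial infarction (MI), Miat-knockout sham and Miat-knockout MI, all collected 4 weeks after surgery. The knockout was labelled MIAT KO and systemic, so it was not limited to cardiomyocytes, and the sham groups underwent surgery too. Wild-type mice were 13 to 14 weeks old and knockout mice 15 to 16 weeks, so age and genotype cannot be told apart. Per the file headers the arrays were scanned at 2 times. The larger scan held 8 arrays (both MI groups and knockout sham replicates 2 and 3). The smaller held 4 (all of wild-type sham and knockout sham replicate 1). Infarction and scan therefore cannot be told apart in wild type, and genotype and scan are partly mixed between the sham groups.

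Long intergenic noncoding RNAs (lincRNAs) are transcripts without a long open reading frame that are transcribed from between protein-coding genes, often spliced and polyadenylated like messenger RNAs. Many were first catalogued from chromatin marks of active promoters and transcribed bodies. As a class they are expressed at lower levels and more narrowly across tissues than messenger RNAs, and several act in the nucleus on chromatin or splicing, among them Miat, whose human locus was linked to infarction risk. The files do not pair these probes with genes, so each probe is given by its name, and no role can be stated for a single member. Neither Miat nor ventricle marker genes could be matched to probes here, so the genotype and tissue labels were not checked against them. Each name ends in a plus or a minus sign and P1. What the sign marks is not stated in the sources used here. Of the 332 numbers among the mouselincRNA probes, 317 carried both a plus and a minus probe, and so did 12 of the 71 numbers among the lincRNA exon probes.

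Most members were detected in the ventricle, and the lincRNA exon probes more often than the mouselincRNA probes. Detection means that the scanner software marked the spot as well above background. On single arrays between 69.8% (wild-type sham replicate 1) and 77.5% (wild-type MI replicate 2) of the 649 mouselincRNA probes were detected, against 79.5% to 86.7% of the 83 lincRNA exon probes and 82.8% to 88.3% of all non-control probes. Wild-type sham arrays 1, 2 and 3 detected 453, 471 and 454 mouselincRNA probes, the 3 wild-type MI arrays 476, 503 and 466, the knockout sham arrays 494, 499 and 476 and the knockout MI arrays 497, 495 and 488. Every knockout array therefore detected more mouselincRNA probes than any wild-type sham array, while the wild-type MI arrays overlapped both sides. The same order held over all non-control probes for the means of the groups but not array by array, with 50430, 51878 and 50742 detected in wild-type sham and 51680 as the lowest knockout count.

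Counted by group, 437 mouselincRNA probes (67.3%) were detected on all 3 arrays of wild-type sham, 447 (68.9%) on those of wild-type MI, 463 (71.3%) on those of knockout sham and 468 (72.1%) on those of knockout MI. The lincRNA exon probes gave 65, 63, 69 and 68 of 83 in the same order. Over all non-control probes the shares were 81.1%, 82.1%, 83.4% and 83.7%, so the difference between groups was shared by the array as a whole. In total 485 members (66.3%) were detected on all 12 arrays, and 101 (13.8%) were detected on none, against 79.0% and 6.96% of all non-control probes. A further 82 were detected on some arrays without filling a group. Of the members that filled at least 1 group without filling all 4, 18 did so in both knockout groups and neither wild-type group, and 1 in both wild-type groups and neither knockout group. The corresponding counts over all 60915 non-control probes were 519 and 35.

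The 549 members (75%) detected on all 3 arrays of at least 1 group were tested, 480 mouselincRNA and 69 lincRNA exon probes, against 85.9% of all non-control probes. The other 183 were too dim for this filter, and since a member could pass through the group in which it was bright, distributions are also given over every member and over the 485 detected on all 12 arrays. Levels below are log2 signals relative to the array's 75th percentile of non-control spots, and they depend on the probe as well as on its RNA. In wild-type sham the median level of the tested mouselincRNA probes was -2.06 ± 0.028 (SD over arrays, n = 3). It was -2.21 ± 0.16 in wild-type MI, and the knockout gave -2.06 ± 0.017 after sham surgery and -1.99 ± 0.055 after infarction (SD, n = 3 each). For the lincRNA exon probes the medians were -1.64 ± 0.040, -1.83 ± 0.13, -1.73 ± 0.071 and -1.58 ± 0.10 in that order (SD, n = 3 each). All tested probes of the array had medians between -1.35 and -1.30 in the 4 groups. The members' spread between replicates was like that of the array, with a median SD of 0.099 in sham and 0.21 in infarcted wild-type hearts and of 0.17 in sham and 0.13 in infarcted knockout hearts, against 0.11, 0.21, 0.17 and 0.14 over all tested probes.

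After infarction in wild type, lincRNA-named probes fell more often than they rose. The wild-type sham and MI arrays were scanned at different times, so infarction and scan cannot be told apart here. Of 549 tested members 112 fell and 33 rose (limma, Benjamini-Hochberg adjusted p under 0.05 over all 52300 probes tested). As a share, 20.4% of the members fell and 6.01% rose, where 13.8% of all tested probes fell and 12.8% rose. The share called in either direction, 26.4%, was at the array's own 26.6%, so the members' shares were set apart from the array by direction and not by how many were called. At an unadjusted p under 0.05 there were 248 members (45.2%), against 43% of all tested probes. The name classes gave like counts. Among 480 mouselincRNA probes 99 fell and 29 rose, and among 69 lincRNA exon probes 13 fell and 4 rose. Of the 33 members that rose 17 exceeded a log2 difference of 1, compared with 6 of the 112 that fell. The whole array was unequal in the same way, with 2376 of 6711 higher and 538 of 7222 lower calls beyond that size. RNA of a whole ventricle was measured, so fewer cells that make a transcript and less of it per cell cannot be told apart.

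The difference between wild-type MI and wild-type sham had a median of -0.20 on the log2 scale over the tested mouselincRNA probes (quartiles -0.42 and 0.091) and of -0.22 over the tested lincRNA exon probes (quartiles -0.35 and 0.097). Over all tested probes the median was -0.044. A negative difference was found in 385 of 549 members (70.1%), against 53.8% of all tested probes. Without the detection filter the medians were -0.16 and -0.17 for the 2 classes, and on the probes detected on all 12 arrays they were -0.23 and -0.20. They were smaller, -0.086 and -0.093, with normexp background correction (0.0155 over all tested probes), and -0.14 and -0.10 without wild-type MI replicate 2 (-0.014 over all tested probes). Probes of the same array whose names begin with humanlinc gave a median of -0.23, with 170 of 816 lower and 53 higher, so a shift of this size was not limited to the mouse names. All 3 wild-type MI arrays lay on the low side, but not equally. Relative to the wild-type sham mean, the median mouselincRNA probe stood at -0.13, -0.39 and -0.12 on wild-type MI replicates 1, 2 and 3, and the median lincRNA exon probe at -0.11, -0.42 and -0.11. Replicate 2 was thus the lowest in both classes, and it was also the lowest over all tested probes (-0.099, against -0.025 and -0.011). On the 6 knockout arrays the same quantity for mouselincRNA probes lay between 0.0043 and 0.064.

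Infarct and sham arrays did not overlap in 201 mouselincRNA probes that were lower and 64 that were higher after infarction in wild type, and in 23 and 9 lincRNA exon probes. Over all tested probes 28.6% were lower without overlap and 22.8% higher. How many members passed depended on the arrays fitted and on whether the model held a term for the scan. The cause of these changes was not tested. All wild-type sham arrays were scanned at the other time than the wild-type MI arrays. Only the knockout sham group has arrays of both scans, so within groups only that group informs a scan term. With the scan as a fixed term 51 members passed, and 50 with it as a random block. With only the 2 wild-type groups in the fit 74 passed. Leaving out wild-type sham replicate 1, 2 or 3 gave 45, 33 and 71 members, against 63 without wild-type MI replicate 2 and 96 without knockout sham replicate 2. The share called over all tested probes is not given for these fits, so the counts are not read as particular to the members. Members called lower outnumbered those called higher in each of these scan and 2-group fits. Shares by direction over all tested probes are not given there, so this is not read as particular to the members. With normexp background correction 84 members were lower (15.3%, against 11.5% of all tested probes) and 41 higher (7.47%, against 15%).

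The mouselincRNA probe with the largest rise was mouselincRNA1039+_P1. Its level was -6.56, -5.94 and -6.60 on the wild-type sham arrays, -4.18, -3.14 and -4.21 on the wild-type MI arrays, -5.44, -6.05 and -6.76 on the knockout sham arrays and -6.08, -6.86 and -5.31 on the knockout MI arrays. Only the 3 wild-type MI arrays were well above background, and they lay above all 9 others. After infarction in wild type it was at least 1.43-fold higher (measured means -3.84 and -6.37, limma adjusted p = 0.007). It entered the tested set only through the group in which it was bright, and with no filter on dim probes the limma adjusted p was 0.01. Such a bound sets the mean of the brighter group against, on each array of the dimmer group, the lowest signal marked well above background, or the probe's own signal where that is higher. Its minus-sign partner was not well above background on any array.

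The lincRNA exon probe with the largest rise was MM9LINCRNAEXON10664-_P1. Its level was -1.27, -1.01 and -0.94 on the wild-type sham arrays, 0.66, 1.04 and 0.41 on the wild-type MI arrays, -1.03, -0.90 and -1.1 on the knockout sham arrays and -0.45, -1.09 and -0.56 on the knockout MI arrays. The wild-type MI arrays were again the 3 highest of 12, with a gap to all others. It rose by 1.78 ± 0.19 (log2 difference ± SE, limma adjusted p = 0.0019), which is 3.43-fold. Its plus-sign partner was well above background on all 12 arrays and differed by -0.16 ± 0.17 (SE, limma adjusted p = 0.48).

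Among members that fell, the mouselincRNA probe with the largest difference that met the naming rule was mouselincRNA0970-_P1. The wild-type sham arrays read 1.11, 1.06 and 1.1 and the infarcted wild-type arrays 0.20, -0.28 and -0.12, while the knockout sham arrays read -0.02, 0.35 and 0.90 and the infarcted knockout arrays 0.69, 1.11 and 0.61. Both wild-type groups were apart, while the knockout sham arrays spread from the level of wild-type MI almost to that of wild-type sham. It fell by 1.15 on the log2 scale (SE 0.22, limma adjusted p = 0.0084), which is 2.22-fold. Its plus-sign partner was not well above background on any array.

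MM9LINCRNAEXON10490+_P1, one of the brighter lincRNA exon probes, fell by 1.15 on the log2 scale as well (SE 0.25, limma adjusted p = 0.013). The wild-type sham arrays read 4.66, 4.57 and 4.75 and the infarcted wild-type arrays 3.80, 3.23 and 3.48, while the knockout sham arrays read 3.36, 3.91 and 4.5 and the infarcted knockout arrays 4.26, 4.67 and 4.24. Wild-type sham and MI did not overlap, and every knockout sham array lay below every wild-type sham array. Each of the 4 probes named for this comparison passed under every alternative run for it.

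In wild type, the infarction differences of 2 probes that share a number but differ in sign were only weakly related. Both probes of a number passed the detection filter in 173 of 317 mouselincRNA pairs (54.6%), 1 of the 2 in 127 and neither in 17. Among the 173, the differences after infarction had a Pearson correlation of -0.12 and a Spearman correlation of -0.069, given as a description over pairs that come from the same 12 arrays. The sign of the difference was the same in 99 pairs (57.2%). In 14 pairs both probes were called, 6 with both lower, 0 with both higher and 8 in opposite directions. Of 22 probes called higher whose partner was tested, 19 partners had a negative difference, 8 of them called lower, and the median partner stood at -0.36. Of 70 probes called lower, 43 partners had a negative difference and 27 a positive one. Among the partners of these 70, 12 were called lower and 8 higher, and the median stood at -0.13. For comparison, 70.5% of all 346 probes in these pairs had a negative difference. Only 8 lincRNA exon pairs had both probes tested, and none had both called. Among the single signs, 18 plus and 11 minus mouselincRNA probes rose, and 46 and 53 fell. For lincRNA exon probes 0 plus and 4 minus probes rose, with 37 and 32 tested.

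In the knockout, no member was called after infarction (limma, adjusted p under 0.05; smallest adjusted p 0.415), and neither was any of the 52300 probes tested (0%). An unadjusted p under 0.05 was reached by 25 of 549 members (4.55%), against 9.36% of all tested probes, and an unmoderated test per probe with the same adjustment also called 0. The median difference between knockout MI and knockout sham was 0.029 over mouselincRNA probes (quartiles -0.10 and 0.16) and -0.030 over lincRNA exon probes (quartiles -0.15 and 0.16), with 0.0020 over all tested probes. The mouselincRNA median was negative under the other normalizations: -0.019 with quantile normalization and with the authors' values, -0.028 with median centring and -0.065 with normexp background correction. Infarct and sham arrays did not overlap in 36 mouselincRNA probes that were lower and 25 that were higher, and in 5 and 8 lincRNA exon probes. Over all tested probes these shares were 9.21% and 7.5%.

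The smallest p among mouselincRNA probes belonged to mouselincRNA1596+_P1, whose knockout sham arrays read -3.17, -3.54 and -3.71 and whose knockout MI arrays -4.18, -4.40 and -4.16. The groups did not overlap, and the difference was -0.77 ± 0.18 (SE, limma adjusted p = 0.42). Wild-type sham arrays read -3.96, -3.73 and -4.07 and wild-type MI arrays -3.37, -3.54 and -3.93, so those groups overlapped. Among lincRNA exon probes it was MM9LINCRNAEXON11382+_P1, at -2.54, -2.32 and -2.27 on the knockout sham arrays and -1.47, -2.08 and -1.72 on the infarcted ones. The knockout MI arrays were the higher ones, by 0.62 ± 0.15 (SE, limma adjusted p = 0.42). The wild-type sham arrays of this probe read -2.19, -2.39 and -2.17 and the wild-type MI arrays -2.06, -1.98 and -2.07. The difference in wild type was 0.21 ± 0.15 (SE, limma adjusted p = 0.28).

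Between the infarcted hearts of the 2 genotypes, lincRNA-named probes were more often higher in the knockout. Of 549 tested members 128 (23.3%) were higher and 20 (3.64%) lower in knockout MI than in wild-type MI (limma, adjusted p under 0.05), where 12.7% of all tested probes were higher and 11.4% lower. The share called in either direction was 27%, against 24.1% of the array, and at an unadjusted p under 0.05 it was 45.7% (251 members), against 42.5%. By class, 118 mouselincRNA probes were higher and 17 lower, and 10 lincRNA exon probes were higher and 3 lower. The median difference was 0.28 (quartiles 0.020 and 0.46) for mouselincRNA probes and 0.26 (quartiles 0.035 and 0.45) for lincRNA exon probes, against 0.053 for all tested probes. Both medians were 0.12 with normexp background correction (0.0088 over all tested probes), and they were 0.18 and 0.16 without wild-type MI replicate 2 (0.029 over all tested probes). A positive difference was found in 76.5% of members and 54.5% of all tested probes. The wild-type MI arrays also entered the comparison with wild-type sham, so opposite signs in these comparisons are partly built in. The humanlinc probes gave 182 higher and 20 lower of 816, with a median of 0.27. Knockout arrays lay above wild-type arrays without overlap for 218 mouselincRNA and 28 lincRNA exon probes and below for 30 and 5, with 27.4% above and 18.6% below over all tested probes.

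The number of members called between infarcted hearts depended on the arrays fitted. Without knockout MI replicate 2 the count was 7, and 0 members of either class were called higher. Without knockout MI replicate 1 the count was 45 and without replicate 3 it was 83, and it was 46 without wild-type MI replicate 2. With only these 2 groups in the fit 5 members passed, all lower, and with age as a covariate 0 passed, with 24 at an unadjusted p under 0.05. The knockout MI mice were 16 weeks old and the wild-type MI mice 13 to 14 weeks. Their ages did not overlap, so the fit with age cannot separate age from genotype here. All 6 arrays of the infarcted groups were scanned at the same time, and a fit to the arrays of that scan called 45 members higher and 15 lower. The share called over all tested probes is not given for these fits, so the counts are not read as particular to the members.

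The mouselincRNA probe with the largest positive difference here was mouselincRNA0788-_P1. Its level was -2.69, -2.68 and -4.13 in knockout MI and -5.21, -5.31 and -4.64 in wild-type MI, with -4.5, -4.61 and -4.90 in knockout sham and -4.33, -3.43 and -4.95 in wild-type sham. The groups with infarction did not overlap, but knockout MI replicate 3 lay below wild-type sham replicate 2. It was at least 2.49-fold higher in knockout MI (measured means -3.17 and -5.05, limma adjusted p = 0.019), since no wild-type MI array was well above background. It too entered the tested set only through the group in which it was bright, and with no filter the limma adjusted p was 0.027. The call was lost without knockout MI replicate 1 or 2 or wild-type MI replicate 2, with age as a covariate, with normexp correction and with only these 2 groups. Its plus-sign partner differed by 0.32 ± 0.16 (SE, limma adjusted p = 0.14). The largest negative difference was that of mouselincRNA1039+_P1, at least 1.59-fold lower in knockout MI than in wild-type MI (measured means -6.08 and -3.84, limma adjusted p = 0.015, or 0.021 with no filter). This call was lost without knockout MI replicate 2, with age as a covariate and with only these 2 groups.

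Among lincRNA exon probes, MM9LINCRNAEXON10490+_P1 was higher in knockout MI by 0.88 ± 0.25 (SE, limma adjusted p = 0.033) and MM9LINCRNAEXON10664-_P1 lower, by -1.40 ± 0.19 (SE, limma adjusted p = 0.0061). The arrays of neither probe overlapped between the infarcted groups. The call of MM9LINCRNAEXON10664-_P1 was lost with age as a covariate and with only these 2 groups. That of MM9LINCRNAEXON10490+_P1 was lost in these fits too, with the replicate block, in the unmoderated test and without wild-type MI replicate 2 or any 1 knockout MI array.

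Between sham-operated hearts of the 2 genotypes no member was called (limma, smallest adjusted p 0.086), where 0.0402% of all tested probes were called, and an unmoderated test per probe with the same adjustment called 0 too. An unadjusted p under 0.05 was reached by 86 of 549 members (15.7%), against 17.2% of all tested probes. The median difference between knockout and wild-type sham was 0.053 for mouselincRNA probes and 0.067 for lincRNA exon probes, with 0.017 over all tested probes. With age as a covariate the mouselincRNA median was -0.044. Knockout sham arrays lay above wild-type sham without overlap in 106 mouselincRNA and 13 lincRNA exon probes and below in 55 and 9, with 17.3% above and 14.6% below over all tested probes. Knockout sham replicates 2 and 3 were scanned at another time than wild-type sham, so genotype and scan are partly mixed here. Without wild-type MI replicate 2, which enters only the shared estimate of spread, 14 members passed. With the scan as a fixed term 24 passed, a fit in which only knockout sham replicate 1 shares a scan with wild-type sham. The share called over all tested probes is not given for either fit.

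The smallest p was that of mouselincRNA0703-_P1, with levels of -5.06, -4.90 and -4.91 in wild-type sham and -4.11, -4.08 and -4.02 in knockout sham. The groups did not overlap and no wild-type sham array was well above background. The knockout was at least 1.22-fold higher (measured means -4.07 and -4.96, limma adjusted p = 0.086, or 0.11 with no filter, so not called). Its plus-sign partner was well above background on all 12 arrays and differed by 0.36 ± 0.19 between the sham groups (SE, limma adjusted p = 0.37). For MM9LINCRNAEXON10207-_P1 the levels were -3.80, -3.60 and -4.18 in wild-type sham and -2.72, -3.34 and -3.26 in knockout sham. The knockout arrays were higher without overlap, by 0.75 ± 0.18 (SE, limma adjusted p = 0.11).

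The difference between the infarction effects of the 2 genotypes was tested as an interaction, knockout MI minus sham less wild-type MI minus sham. Its wild-type part cannot be told apart from the scan. The interaction passed for 17 of 549 members (3.10%), against 3.74% of all tested probes (limma, adjusted p under 0.05). Positive interactions were found for 15 members (2.73%; 1.6% of all tested probes) and negative ones for 2 (0.364%; 2.14% of all tested probes). All 15 members with a positive interaction had fallen in wild type, with log2 differences of -1.15 to -0.41. Their differences in the knockout were 0.0071 to 0.47, none of them called, as no tested probe of the array was called there. The interaction subtracts the wild-type difference, so these signs are partly built in by the selection. The 15 comprised 13 mouselincRNA and 2 lincRNA exon probes, and 1 of each class had a negative interaction. The median interaction was 0.21 over mouselincRNA probes and 0.15 over lincRNA exon probes, against 0.21 over humanlinc probes and 0.027 over all tested probes. With median centring 10 were positive and 7 negative, and with normexp background correction 16 and 17, with medians of -0.0062 and -0.0017 and a median over all tested probes of -0.097. No member passed without knockout MI replicate 1 or 2, knockout sham replicate 2 or any 1 wild-type sham array, nor with age as a covariate or the replicate block (97 and 127 at an unadjusted p under 0.05). The count was 11 without knockout MI replicate 3, 10 without wild-type MI replicate 2 and 30 without knockout sham replicate 3. These counts too are given without the share over all tested probes.

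For mouselincRNA0970-_P1 the interaction was 1.54 ± 0.31 (SE, limma adjusted p = 0.035), made of a difference of -1.15 in wild type and 0.39 in the knockout. For MM9LINCRNAEXON10490+_P1 it was 1.62 ± 0.36 (SE, limma adjusted p = 0.042), from -1.15 and 0.47. In both, the knockout sham mean was below the wild-type sham mean, by 0.68 and 0.74 on the log2 scale (limma adjusted p = 0.17 and 0.18). The negative interaction of MM9LINCRNAEXON10664-_P1 was -1.47 ± 0.27 (SE, limma adjusted p = 0.031), from 1.78 in wild type and 0.31 in the knockout. That of mouselincRNA1596+_P1 was -1.08 ± 0.25 (SE, limma adjusted p = 0.045), from 0.31 and -0.77, neither of them called. All 4 calls were lost without knockout MI replicate 1 or 2, knockout sham replicate 2 or any 1 wild-type sham array.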

How the data were processed

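RNA of 12 mouse left ventricles was measured on 12 one-colour arrays, 3 per group. Spot intensity, the processed and median signals and the flags come from the scanner software, which the submitters' processing notes name as Agilent Feature Extraction 11.0.1.1. The intensity columns are the scanner's deposited values, and the processed signal is background-subtracted by the software per the file headers. The median signal and its separate background value were used only for the normexp alternative. The deposited flags (coded 0 or 1, per the file headers) mark spots well above background, saturated or outlying. A table of log2 values deposited by the authors served as an alternative; the sources used here do not give its normalization. Names refer to build mm9 and no coordinates were used.

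Control spots and outlier spots (111 to 182 per array) were left out. Processed signals were put on the log2 scale, the array's 75th percentile was subtracted, and spots of a probe were averaged. No member spot was saturated, and 2 members lacked a value on 1 array each, which the fit dropped. Probes well above background on all 3 arrays of at least 1 group were tested. One model over the 4 groups was fitted with limma 3.58.1 in R 4.3.3 (lmFit, eBayes), with Benjamini-Hochberg adjustment at 0.05 over all probes tested. The script was tested on simulated data. The number of arrays limits the precision.

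Named probes were, per comparison and name class, the largest higher and the largest lower call that was detected on each array of the brighter group and did not overlap between the groups; with no call, the probe of smallest p was given as values. The members, lists and rules were chosen with earlier results of these data known. Alternatives were quantile normalization, median centring, normexp with an offset of 50 on the median signals (the column the files hold) and the authors' values. Further ones were no or a stricter filter, eBayes with trend, a replicate block and the scan as a fixed term or random block (correlation 0.22). Age, an unmoderated test, only the groups compared, only the larger scan and each array left out were also run. Same-numbered arrays of different groups had correlations of -0.34 to 0.34 in their deviations from the group means (median 0.031), 6 of 18 over 0.1, so the numbers were not taken to pair the animals.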

Additional observations from a re-analysis of the deposited data

Results flagged for a closer look

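The effect of infarction on lincRNA-named probes differed between the genotypes by the interaction test in 17 members (limma, adjusted p under 0.05). The 4 of them named in the results were mouselincRNA0970-_P1 with an interaction of 1.54, MM9LINCRNAEXON10490+_P1 with 1.62, mouselincRNA1596+_P1 with -1.08 and MM9LINCRNAEXON10664-_P1 with -1.47, each on the log2 scale and each the difference of the knockout's infarction effect from that of wild type. The share of members that passed, 3.10%, was below the 3.74% of all tested probes. No member passed with age as a covariate, with the replicate block or without knockout MI replicate 1. The wild-type part of the interaction cannot be told apart from the scan.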

How the results depend on the processing

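The count of members called after infarction in wild type was 145, and 91 with the replicate block, 51 with the scan as a fixed term, 50 with it as a random block, 82 with age and 74 with only these groups. Between infarcted hearts it was 148, and 94 with the replicate block and 0 with age (24 at an unadjusted p under 0.05 in limma). It was 5 with only these groups and 60 on the arrays of the larger scan. Between sham groups it was 0, and 1 with normexp and 24 with the scan as a fixed term. For the interaction it was 17, and 10 with quantile normalization, 10 with the authors' values, 33 with normexp, 7 without the filter, 45 with the scan as a fixed term, and 0 with the replicate block or age. Leaving out 1 array gave 33 to 189, 7 to 194, 0 to 14 and 0 to 30 members in these comparisons. Shares over all tested probes are not given beside these counts, so their changes are not read as particular to the members. Normexp moved the medians of mouselincRNA probes to -0.086 (wild-type infarction), -0.065 (knockout infarction), 0.12 (infarcted hearts), 0.14 (sham hearts) and -0.0062 (interaction), and those of lincRNA exon probes to -0.093 (wild-type infarction), 0.12 (infarcted hearts) and -0.0017 (interaction). With age the medians were 0.19 for mouselincRNA and 0.17 for lincRNA exon probes between infarcted hearts, and -0.044 for mouselincRNA probes between sham hearts. Leaving out 1 array gave median ranges of -0.27 to -0.10 for lincRNA exon probes after infarction in wild type, 0.18 to 0.32 for mouselincRNA and 0.16 to 0.30 for lincRNA exon probes between infarcted hearts, and 0.12 to 0.26 for the interaction of mouselincRNA probes. The cause of these changes was not tested. Of the total call counts and class medians, the other 298 values stayed within 1.5 times (counts) or 1 SD between arrays (medians). The counts by class and direction were less stable, with 135 values beyond 1.5 times. For example, the mouselincRNA probes lower after infarction in wild type numbered 20 to 127 when 1 array was left out. Among the values of single named probes 67 lost a call and 3 gained one, and none that was called changed sign. In the replicate block the numbers were not shown to pair animals, since 4 of 12 arrays correlated best with their own number. With 3 arrays per group and 183 members too dim to test, small differences of dim probes were not detectable here.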

Other observations

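Split by the mean level over all arrays into quartiles of all tested probes, the share of mouselincRNA probes that fell after infarction in wild type was 9.47%, 20.8%, 34.7% and 25% from the dimmest to the brightest quartile, with 169, 149, 118 and 44 probes. Over all tested probes these shares were 7.64%, 13.7%, 20.0% and 13.8%. The corresponding medians were -0.079, -0.23, -0.34 and -0.23 for mouselincRNA probes and 0.0026, -0.088, -0.13 and 0.086 for all tested probes. In the brightest quartile the 9 lincRNA exon probes had a median of -0.31 and the 96 humanlinc probes one of -0.26, with 33.3% and 30.2% lower, so a negative median there was shared by the 3 name classes.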
